A study of Rattus norvegicus with 6 samples.

Results

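P2rx2, Enpp1 and Slc28a2 are genes of extracellular nucleotide signalling, and their RNA was read here in islets of adult and 10-day-old rats. Each has 1 probe on the array, so they are 3 of the 38 genes that could be named among the transcript probes, and their probes are 3 of 39886 in all. They were found by the RefSeq transcript that each probe carries, which is NM_053656 for P2rx2 (probe A_44_P288091), NM_053535 for Enpp1 (A_43_P12841) and NM_031664 for Slc28a2 (A_44_P1024721). The genes were chosen by their place in this pathway together with measured values, namely the adult minus P10 difference in log2 processed signal on these same arrays. Their values are therefore a description, and no p-value is given for them.

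ATP leaves beta cells together with insulin, because the secretory granules hold both. Outside the cell it opens P2X receptors, cation channels that let in sodium and calcium, and P2rx2 encodes a subunit of that family. Enzymes on the cell surface then take ATP apart, and ENPP1, an ectonucleotide pyrophosphatase, splits it into AMP and pyrophosphate. ENPP1 is also known as a binding partner and inhibitor of the insulin receptor. Adenosine, the nucleoside at the end of this chain, is taken back up by transporters such as CNT2, the sodium-coupled carrier for purine nucleosides and uridine that Slc28a2 encodes.

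Pancreatic islets came from adults of 3 months (3 samples, each from a single rat) and from pups at postnatal day 10, called P10 (3 samples, each pooling 2 pups). No genotype, strain or treatment is named in the labels for either age. RNA ligase joined the dye Cy3 to free 3′ ends, and each sample went on its own 1-colour array, of a design made for PIWI-interacting RNAs (piRNAs). A transcript probe therefore reads any labelled RNA or RNA fragment that binds to it. The arrays were scanned as 2 slides, with Adult 1 and all 3 P10 arrays on slide 1 and Adult 2 and Adult 3 on slide 2.

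A level is given here as log2 of the background-subtracted spot signal minus the 75th percentile of the same array over piRNA probes detected on all 6 arrays. That percentile was at a signal of 139, 108 and 101 in Adult 1, Adult 2 and Adult 3, against 175, 95.7 and 140.0 in P10 1, P10 2 and P10 3. A level of 0 is therefore as bright as that percentile, and no level is set against that of another probe as an amount of RNA. The number of arrays, 3 per age, limits the precision. Across tested probes P10 1 lay nearer to Adult 1 (r = 0.941, a description across probes, which are not replicates) than to P10 2 (0.889) or P10 3 (0.907). Of 63 marker genes listed for endocrine, exocrine, vascular, stromal, blood, neural, dividing and immature cells, only Ldha, a lactate dehydrogenase gene of the immature list, was matched to a probe, while 28 transcript probes had no gene match. The labelled tissue and the cell make-up of the samples were therefore not checked on these arrays, and fewer cells of a type and less RNA per cell cannot be told apart.

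All 3 genes were detected throughout. Each probe is printed as 10 spots scattered over the array, and all 60 spots of each gene over the 6 arrays were well above background by the scanner software's mark. Spots of 1 probe agreed closely on an array, with an SD between 0.030 and 0.22 on the log2 scale for P2rx2, between 0.042 and 0.087 for Enpp1 and between 0.037 and 0.078 for Slc28a2. The spread between arrays of an age was 9.55, 8.52 and 21.4 times the median spread between spots for P2rx2, Enpp1 and Slc28a2. The error of a difference between arrays is therefore taken from the arrays and not from the spots. Each SE of an age difference is moderated: limma draws the variance of a probe toward that of all probes fitted. For the 3 genes this SE is smaller than their own SDs alone would give.

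**Figure D1:**
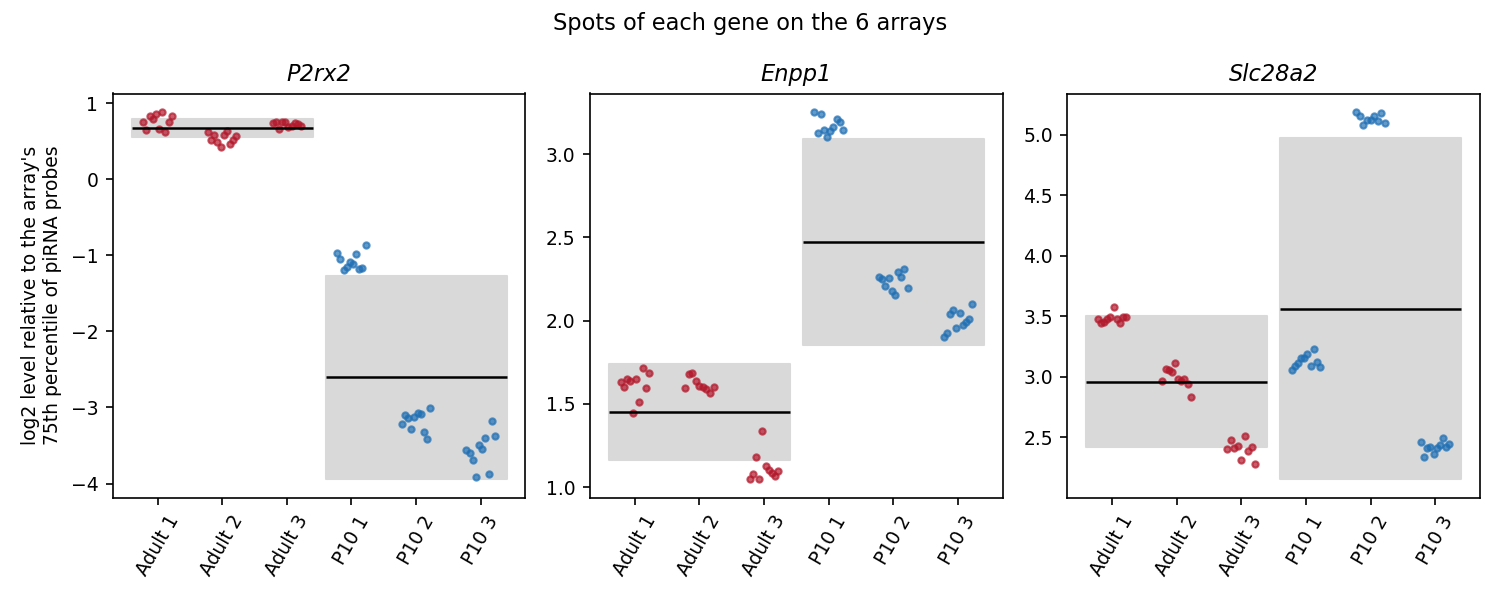
Level of each of the 10 spots per probe (log2, relative to the 75th percentile of piRNA probes of the array; spots with an outlier mark left out) on the 3 adult arrays (red) and the 3 P10 arrays (blue). Black lines are the means of each age and grey bands 1 SD (n = 3 arrays): the adult arrays lie above every P10 array for P2rx2 and below every P10 array for Enpp1, and the ages overlap for Slc28a2.

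P2rx2, the ATP-gated channel subunit, was the only one of the 3 genes with a higher mean level in adult islets. Its level was 0.77, 0.54 and 0.72 in Adult 1, Adult 2 and Adult 3, against -1.07, -3.18 and -3.56 in P10 1, P10 2 and P10 3. The adult arrays lay within 0.23 of each other, all of them above every P10 array. The P10 arrays spread over 2.49, with P10 1 well above the other two. The means were 0.68 ± 0.12 in adult and -2.60 ± 1.34 in P10 islets (SD, n = 3 each), an adult minus P10 difference of 3.28 ± 0.62 on the log2 scale (SE), or 9.72-fold.

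That fold averages over P10 samples that differed among themselves. Against P10 1 the adult mean was higher by 1.75 on the log2 scale, against P10 2 by 3.85 and against P10 3 by 4.24. Over the 9 pairs of an adult with a P10 array the ratio lay between 3.06-fold and 20.1-fold. Within slide 1, Adult 1 lay 3.37 above the mean of the P10 arrays, and the adults of slide 2 lay 3.24 above the same mean.

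The low P10 values of P2rx2 were close to background, and the size of its difference changed with the background handling. Before any subtraction the median spot brightness was 264, 182 and 194 on the adult arrays, against 103, 31.0 and 33.0 on P10 1, P10 2 and P10 3. The local background of those spots was between 18.3 and 21.0 on all arrays. After subtraction the signal was 237, 157 and 166 in the adults and 83.1, 10.6 and 11.9 in the P10 samples. The lowest of these exceeded the negative control spots, whose highest signal was 1.64 on P10 2 and 1.53 on P10 3. They were nearer to the lowest signal of any detected probe, which was 5.52 on P10 2 and 5.82 on P10 3. With the background not subtracted the difference shrank to 2.28 ± 0.34 on the log2 scale (SE), and with normexp background correction, which adds an offset of 50, to 1.31 ± 0.35, and in both the ages still did not overlap.

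**Figure D2:**
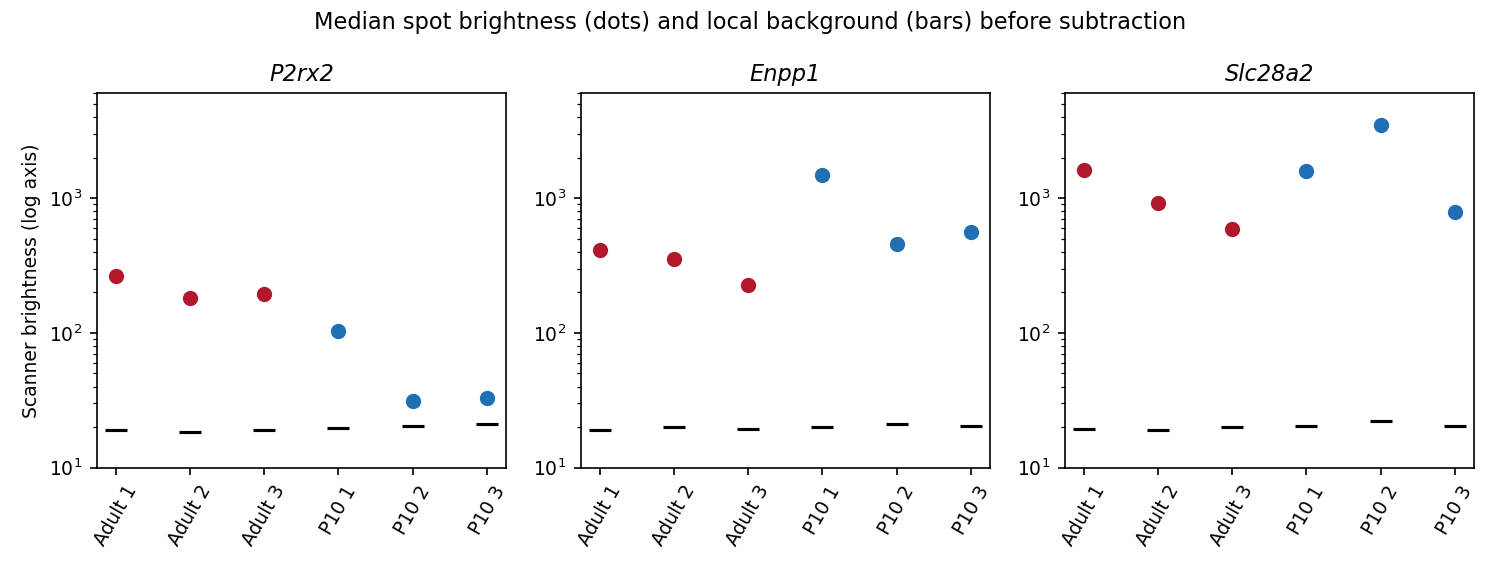
Median spot brightness (dots, scanner units, log axis) and median local background (black bars) before subtraction, by array, with adult arrays in red and P10 arrays in blue. P2rx2 at P10 2 and P10 3, at 31.0 and 33.0, is the dimmest of the points, while Enpp1 and Slc28a2 lie far above background on every array.

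Enpp1, the pyrophosphatase that degrades ATP, had lower values in the adults. Its level was 1.61, 1.62 and 1.12 in Adult 1, Adult 2 and Adult 3, against 3.17, 2.24 and 2.00 in P10 1, P10 2 and P10 3. Every adult array lay below every P10 array, but the gap was narrow: the lowest P10 array was 0.38 above the highest adult array. The means were 1.45 ± 0.29 in adult and 2.47 ± 0.62 in P10 islets (SD, n = 3 each). The adult minus P10 difference was -1.02 ± 0.39 on the log2 scale (SE), so that the P10 mean was 2.03 times the adult mean.

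P10 1 weighed most in this difference. The signal was 426, 332 and 218 in Adult 1, Adult 2 and Adult 3, against 1578, 451 and 560.3 in P10 1, P10 2 and P10 3, so P10 1 was the brightest array. Without P10 1 the difference was -0.67 ± 0.32 (SE). Within slide 1, Adult 1 lay 0.86 below the P10 mean, and the adults of slide 2 lay 1.10 below it. For P2rx2 the same array, P10 1, lay nearest to the adults, and for Enpp1 it lay farthest from them. Among tested probes with a value on every array, P10 1 was the P10 array nearest to the adult mean in 46.4%. In those with 10 spots the share was 48.75%.

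Slc28a2, the nucleoside carrier, showed no separation by age. Its level was 3.48, 2.99 and 2.40 in Adult 1, Adult 2 and Adult 3, against 3.13, 5.14 and 2.42 in P10 1, P10 2 and P10 3. The ages overlapped, and P10 2 stood far above the other 5 arrays while P10 3 was level with the lowest adult. The means were 2.96 ± 0.54 in adult and 3.56 ± 1.41 in P10 islets (SD, n = 3 each), a difference of -0.60 ± 0.69 on the log2 scale (SE).

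The sign of that difference rested on P10 2. The signal was 1561, 862 and 533 in Adult 1, Adult 2 and Adult 3, against 1530.5, 3367 and 749.9 in P10 1, P10 2 and P10 3. Without P10 2 the difference turned to 0.19 ± 0.45 (SE). Adult arrays were higher in 3 of the 9 pairs of an adult with a P10 array. Within slide 1, Adult 1 minus the P10 mean was -0.08, and for the adults of slide 2 it was -0.86.

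The 3 genes thus took 3 different courses over the same samples. P10 1 was the highest P10 array for P2rx2 and Enpp1, and P10 2 the highest for Slc28a2. Among the adults, Adult 3 was the lowest for Enpp1 and Slc28a2, and Adult 2 for P2rx2. In all 3 genes the SD was larger in P10 islets, at 0.12, 0.29 and 0.54 in adult against 1.34, 0.62 and 1.41 in P10 islets for P2rx2, Enpp1 and Slc28a2. For P2rx2 the P10 spread depended on the background handling. With normexp its levels were -0.68, -1.02 and -1.18 in P10 1, P10 2 and P10 3. The adult levels were then 0.12, 0.41 and 0.51. Of the 80 tested 10-spot probes with a value on every array, 45 (56.3%) had the larger SD in P10, with a median SD of 0.42 in adult and 0.47 in P10 islets.

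Of 81 tested probes with 10 spots, which read transcripts, miRNAs and unnamed sequences, P2rx2 had the second highest adult minus P10 difference. Enpp1 was at rank 11 and Slc28a2 at rank 23 from the lowest. The median difference of the 81 was -0.04, with 61 of them within 1 of no difference on the log2 scale. In the fit over all 11981 tested probes, 4.27% passed the adjusted threshold of 0.05 as higher and 1.78% as lower in adult islets (limma). That balance turned under other processing: 17 probes were higher and 50 lower with normexp, 1739 and 2212 with array weights, 893 and 1185 without Adult 1, and 1500 and 2146 without both arrays numbered 1. In the 10-spot probes the shares were 7.41% higher and 0% lower. All adult arrays lay above all P10 arrays, as for P2rx2, in 16.8% of all tested probes and 16% of those with 10 spots. They lay below all P10 arrays, as for Enpp1, in 14.5% and 6.17%. Because the genes were chosen with this comparison known, nothing is read from these counts.

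**Figure D3:**
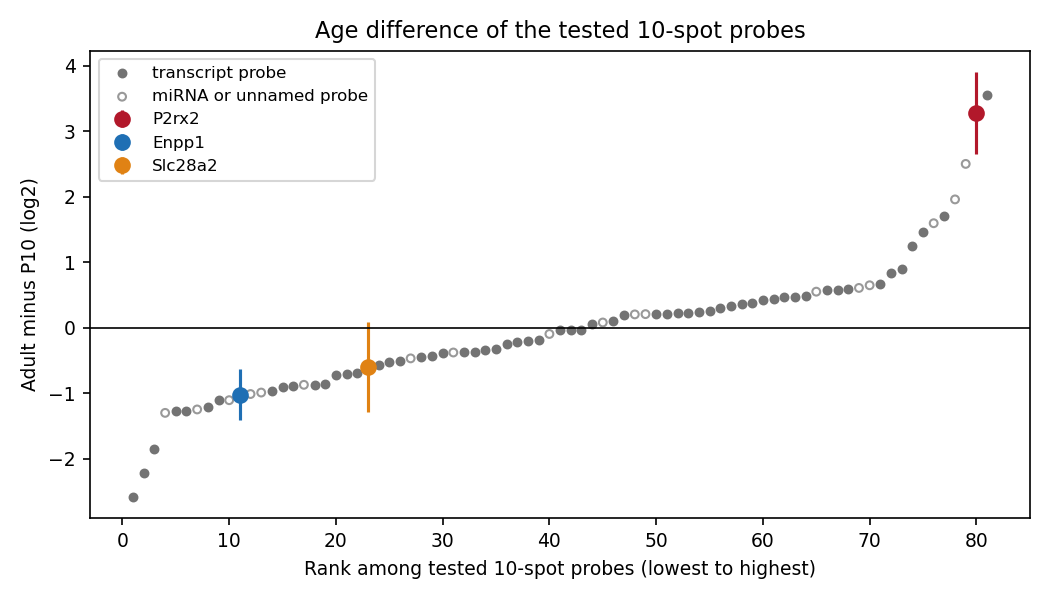
Adult minus P10 difference (log2) of the 81 tested 10-spot probes, ordered from lowest to highest; filled grey points are transcript probes and open points are miRNA or unnamed probes. P2rx2 (red, 3.28) is second from the top, Enpp1 (blue, -1.02) and Slc28a2 (orange, -0.60) lie in the lower part, and bars are the SE of each of the 3 genes.

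Directions under other processing were as follows for the 3 genes. P2rx2 was higher on all adult arrays than on any P10 array under each of the 8 scalings and background settings compared, and Enpp1 was lower on all adult arrays under each of them. The gap between the lowest P10 and the highest adult array of Enpp1, 0.38 as reported, all but closed with the percentile taken over all piRNA probes (0.0037) and narrowed to 0.082 without scaling. Slc28a2 overlapped between the ages under each of them.

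**Figure D4:**
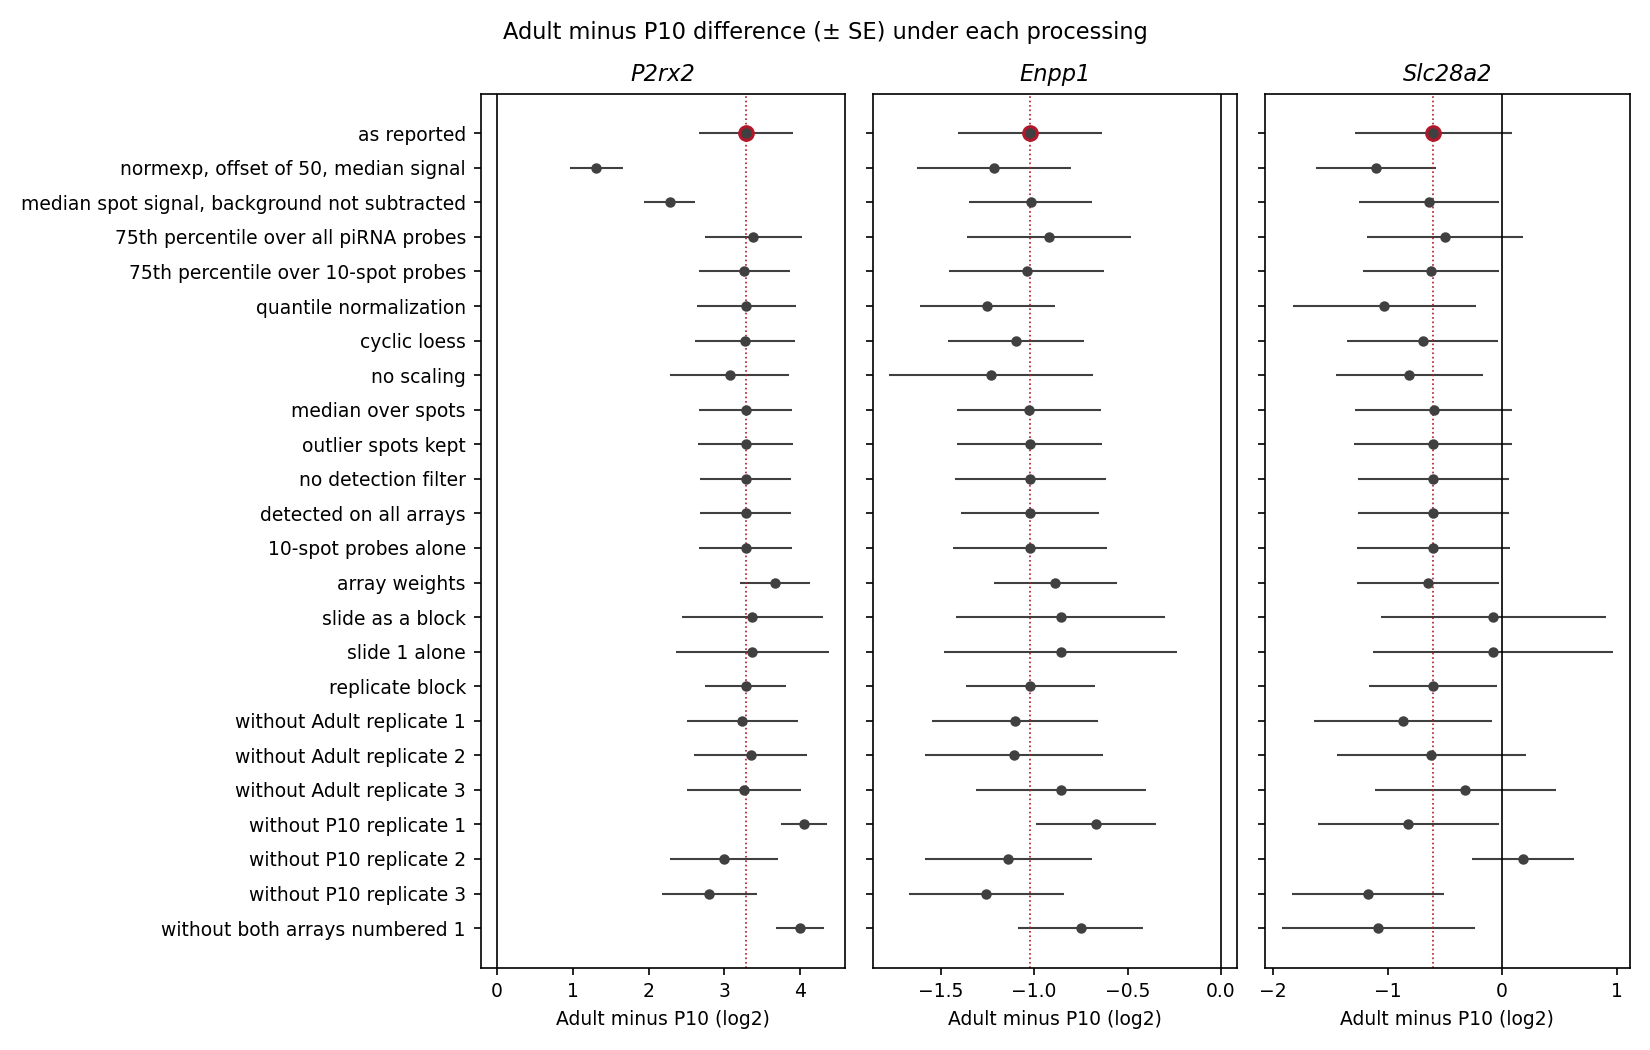
Adult minus P10 difference (log2, points, with SE as bars) of each gene as reported (red) and under each other processing or with arrays left out. P2rx2 stays above 0 at between 1.31 and 4.05, Enpp1 stays below 0 at between -1.26 and -0.67, and Slc28a2 crosses 0 without P10 2.

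No other gene of the pathway was matched to a probe. Of 51 genes listed as P2X, P2Y and adenosine receptors, ectonucleotidases, nucleoside transporters and routes of ATP release, the 3 genes described here were the only ones matched. The other P2X subunits, the receptors for ADP, UTP and adenosine, CD39 (Entpd1) and CD73 (Nt5e), which take ATP down to adenosine, and the vesicular nucleotide transporter (Slc17a9) were not matched to any.

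The transcript probes of other genes that ran most like each member were found by the root mean square difference of log2 levels over the 6 arrays, after each probe was centred on its own mean. There were 46 candidate probes per gene. Nearest to P2rx2 was 1 probe of Pgk1, which encodes a glycolytic kinase, at a distance of 0.44, where the median candidate was at 1.84. That Pgk1 probe had levels of 1.61, 2.45 and 2.57 in the adults, against 0.45, -2.40 and -2.07 in P10 1, P10 2 and P10 3. As for P2rx2, P10 1 lay between the adults and the other P10 arrays. The other tested probe of the gene, CUST_6_PI422140147, differed by 0.21 ± 0.29 (SE, adult minus P10), against 3.55 ± 0.74 for the first. Its mean level was -3.48 in adult and -3.69 in P10 islets, about as dim as P2rx2 on P10 2 and P10 3. The difference was thus not seen in this probe, which is too close to background to decide whether the probes of Pgk1 disagree. The next were Cdh2 (N-cadherin, an adhesion protein) at 0.98 and Ptk2b (a calcium-responsive tyrosine kinase) at 1.02. Their adult minus P10 differences were smaller than that of P2rx2, at 1.45 and 1.25. For Ptk2b the ages overlapped, as P10 1 at 4.28 lay above every adult array.

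For Enpp1 the nearest were 2 of the probes of Gapdh, a glycolytic enzyme, at 0.39 and 0.44, and the probe of Med16, a subunit of the Mediator complex, at 0.46 (median candidate 0.78). All 3 were highest on P10 1, as Enpp1 was. Their adult minus P10 differences were -0.53, -1.27 and -0.37, and in each of them, unlike Enpp1, the ages overlapped. The Gapdh probe at 0.44 and the Med16 probe were dim in adult islets, at mean levels of -2.93 and -3.27. For Slc28a2 the nearest were probes of Actb (beta-actin) at 0.60, B2m (the light chain of MHC class I) at 0.61 and Rpl13a (a ribosomal protein) at 0.64 (median candidate 0.93). Of these, Actb and Rpl13a were highest on P10 2, as Slc28a2 was, whereas B2m was highest on Adult 1, at 2.39 against 2.25 on P10 2. The adult minus P10 difference of that B2m probe was 0.43, opposite in sign to Slc28a2, against -0.70 for the Rpl13a probe. The other B2m probes, at ranks 4 and 5, were at 0.58 and 0.59. The probes of Actb differed in sign: the named one, CUST_10_PI422140147, was at -0.39 ± 0.41 (SE, adult minus P10). CUST_11_PI422140147 and CUST_12_PI422140147, at rank 26 and 19 of the 46, were at 0.58 ± 0.32 and 0.46 ± 0.32. With SEs of this size the sign is not settled for any of them.

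**Figure D5:**
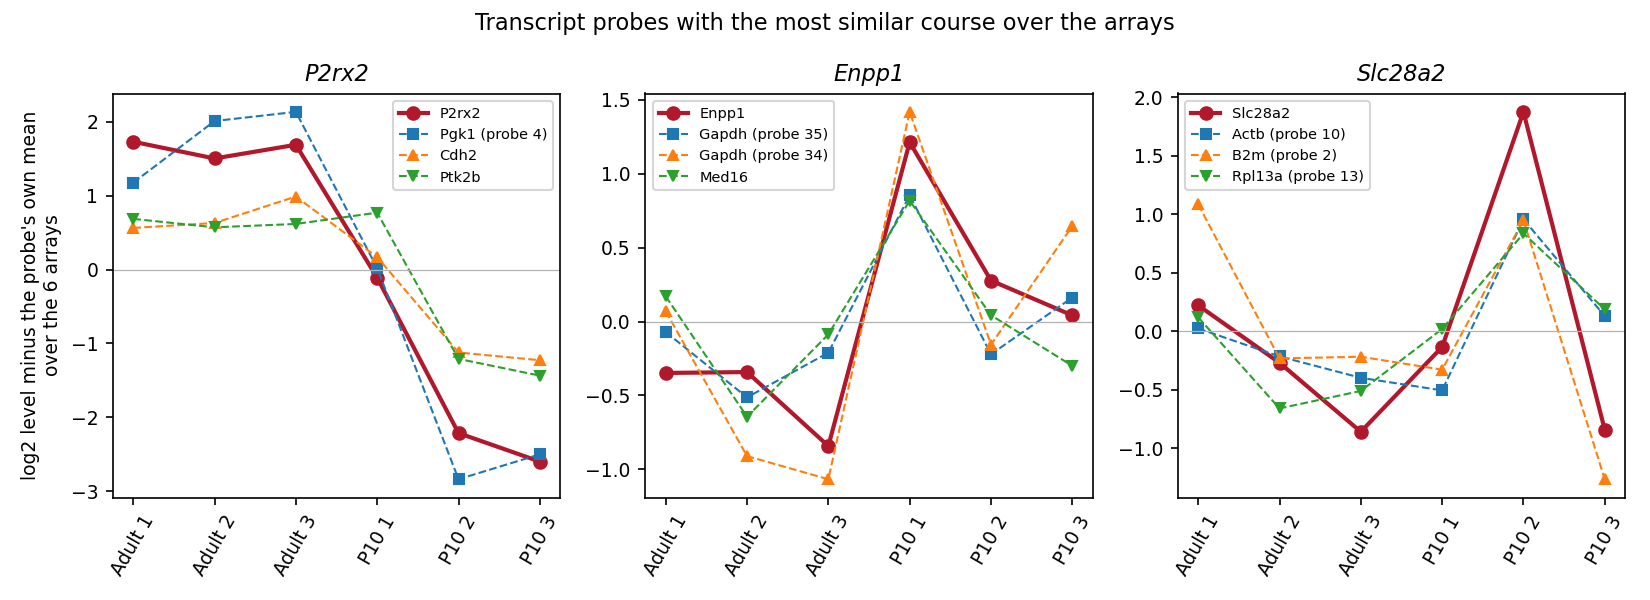
Level minus the probe's own mean over the 6 arrays (log2) for each gene (red) and its 3 nearest transcript probes by root mean square difference; lines only join the points of a probe. The Pgk1 probe drops with P2rx2 on P10 2 and P10 3, the Gapdh and Med16 probes peak with Enpp1 on P10 1, and the Actb and Rpl13a probes peak with Slc28a2 on P10 2.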

How the data were processed

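Agilent Feature Extraction 11.0.1.1 made the deposited intensity values, which are background-subtracted and not normalized between arrays, per the file headers. Control spots and spots with a feature outlier mark were left out, no spot was saturated, and log2 signals of a probe were averaged over its spots. A probe counted as detected where over 50% of its unmarked spots were well above background, and probes detected on all 3 arrays of an age were tested. Levels were scaled to each array's 75th percentile over piRNA probes detected on all 6 arrays, since an array detected between 27.6% and 36.7% of its piRNA probes. All 11981 tested probes were fitted together with limma 3.58.1 in R 4.3.3 (two-sided, Benjamini-Hochberg adjustment, threshold of 0.05), and the script was tested on simulated data. Normexp used the median spot signal. Slides were read from shared scan identifiers. The numbers in the titles are not stated to pair samples, and no pairing was used in the main fit. Deviations from the age means correlated at r = -0.035, 0.24 and -0.23 for numbers 1, 2 and 3. For unlike numbers r lay between -0.23 and 0.31. These values cannot decide on a pairing, since the deviations of 3 arrays from their own mean are tied to each other.

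Of 89 transcript probes, 61 matched 38 genes of a RefSeq table of GRCr8. The array headers name another build, rn4, so no coordinates are given, and probe sequences were not used here. The deposited value table and table of changed piRNAs hold none of the 3 probes. Named are the probes of the 3 genes, other genes of the pathway lists and the 3 most similar transcript probes of each. The members and lists were chosen with earlier results of these data known. Alternatives changed background correction, scaling, averaging of spots, filter, probe set, array weights, slide, replicate block and the arrays included.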

Additional observations from a re-analysis of the deposited data

How the results depend on the processing

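P2rx2 and Enpp1 kept their direction under all 23 alternatives, and Slc28a2 under 22. Not all of these could differ: changes of filter or probe set and the replicate block leave the differences as they are by construction. For P2rx2 and Enpp1 the ages did not overlap. Leaving arrays out, array weights and the slide fits therefore could change the size of their differences but not the direction. The slide as a block and slide 1 alone give the same estimate, since slide 2 holds adults only. The P2rx2 difference, 3.28 on the log2 scale, moved by more than the spread between arrays only with normexp (1.31) and without background subtraction (2.28). Both shrink differences of dim spots by construction, and normexp also moved the median of all tested probes to 0.31. With 1 array left out, P2rx2 lay between 2.80 and 4.05, Enpp1 between -1.26 and -0.67, and Slc28a2 between -1.17 and 0.19, where the positive value came without P10 2. Without scaling the median of all probes was -0.25 and P2rx2, Enpp1 and Slc28a2 were at 3.07, -1.23 and -0.81. The replicate block used numbers that share no stated origin. Each number has an adult and a P10 array, so the block could not change the differences (3.28, -1.02 and -0.60). The fit with the block gave 0 calls, with 3185 probes at an unadjusted p under 0.05.

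The number of called probes, 725 of 11981 (limma), depended on the processing, and the cause was not tested. It was 67 with normexp, 27 with cyclic loess and 0 without scaling, where 2855 had an unadjusted p under 0.05. It was 0 with no detection filter (5165 unadjusted, of more probes tested), 6 with the 10-spot probes alone (of fewer tested), 3951 with array weights, and 1 both with the slide as a block and on slide 1 alone. With 1 array left out it lay between 0 and 2078: 0 without Adult 2, Adult 3, P10 2 or P10 3 (2239, 2166, 2772 and 2284 unadjusted), 1776 without P10 1 and 2078 without Adult 1. Without both arrays numbered 1 it was 3646.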
